A study of Mus musculus with 5 samples.

Results

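The ribosome biogenesis and RNA polymerase I factors are a set of 42 named mouse genes whose products make ribosomal RNA and assemble it into ribosomal subunits. Members were taken by symbol from probe sets that the platform annotation gives exactly 1 symbol, with the brightest probe set standing for a gene. This found 40 of the 42, among 22180 genes with such a probe set. Fbl (fibrillarin, the methyltransferase of the box C/D particle) and Tsr1 (a late 40S assembly factor) had none and were not analysed here.

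Every array carried RNA from mouse embryonic fibroblasts (MEFs) that lack endogenous STING (STING-/-) and were reconstituted with the STING R284S variant. STING is the adaptor that relays cytosolic DNA sensing to TBK1 and IRF3, and R284S is an activating form of it. The 5 groups, of 1 array each, were Compound C, doxorubicin, GSK 690693 and tofacitinib cells, treated for 9 hours, and vehicle cells. All 5 groups carry both the deletion and the variant, so neither can be assessed here, and the labels do not say whether the reconstituted cells were a clone or a pool. No dose was stated in the labels. Compound C (dorsomorphin) inhibits AMPK and BMP type I receptors, GSK 690693 inhibits AKT kinases and also AMPK, tofacitinib inhibits JAK kinases, and the anthracycline doxorubicin traps topoisomerase II on DNA.

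Ribosome production starts in the nucleolus, where RNA polymerase I copies the ribosomal DNA with the help of UBF (from Ubtf) and TIF-IA (from Rrn3). The transcript is modified by small nucleolar ribonucleoproteins (snoRNPs), cut by the small subunit processome, and built with ribosomal proteins into the 40S and 60S subunits. The genes of many of these factors are targets of the transcription factor MYC, and growth signalling through AKT and mTOR raises ribosome output. Doxorubicin is known to inhibit ribosomal RNA synthesis in other cells. The arrays measured messenger RNA of the factors, and neither ribosomal RNA nor polymerase I activity was read.

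With 1 array per group there was no spread between samples, so no difference below has an error, a test or a p-value, and each compares 2 arrays rather than 2 conditions. Values are log2 signals, or differences of log2 signals named as such, and a member was counted as higher or lower at 1.5-fold, a log2 difference of 0.585. Members were set beside the 12317 genes whose signal reached the array median on at least 1 array, and all 40 members did so on all 5 arrays. All 10 fibroblast markers passed this filter, with log2 signals between 7.30 and 12.68, and so did 2 of 6 leukocyte, 1 of 3 epithelial and 2 of 3 endothelial markers. Marker medians of fibroblasts lay between 10.67 and 10.88 on the 5 arrays and those of leukocytes between 4.47 and 4.74. In RNA from whole cultures, fewer cells that express a gene and less RNA per cell cannot be told apart.

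Across the 40 members, the median signals of the arrays fell on different sides of vehicle. The median log2 signal of the members was 8.62 with Compound C, 8.59 with doxorubicin, 9.08 with tofacitinib and 9.12 with GSK 690693, against 8.87 with vehicle. Over all tested genes the medians were 7.16, 7.16, 7.39 and 7.29 for the same compounds in that order, against 7.22 with vehicle. Gene by gene, the members' median difference from vehicle was −0.18 with Compound C but only −0.08 with doxorubicin. With Compound C 31 members lay below vehicle and 8 above, beside 52.2% and 46.6% of the tested genes. With doxorubicin 22 lay below and 17 above, beside 45.1% and 54.0%. Compound C gave the lowest signal of the 5 arrays for 19 members, or 47.5%, and for 28.7% of the tested genes. Doxorubicin gave the lowest signal for 14 members (35.0%, tested genes 25.3%). GSK 690693 gave the highest signal for 18 members (45%, tested genes 14.0%) and tofacitinib for 12 (30.0%, tested genes 17.6%). Vehicle was the highest array for 1 member, Wdr74 (2.5%, tested genes 11.9%), and the lowest for 5 (12.5%, tested genes 18.2%).

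**Figure D1:**
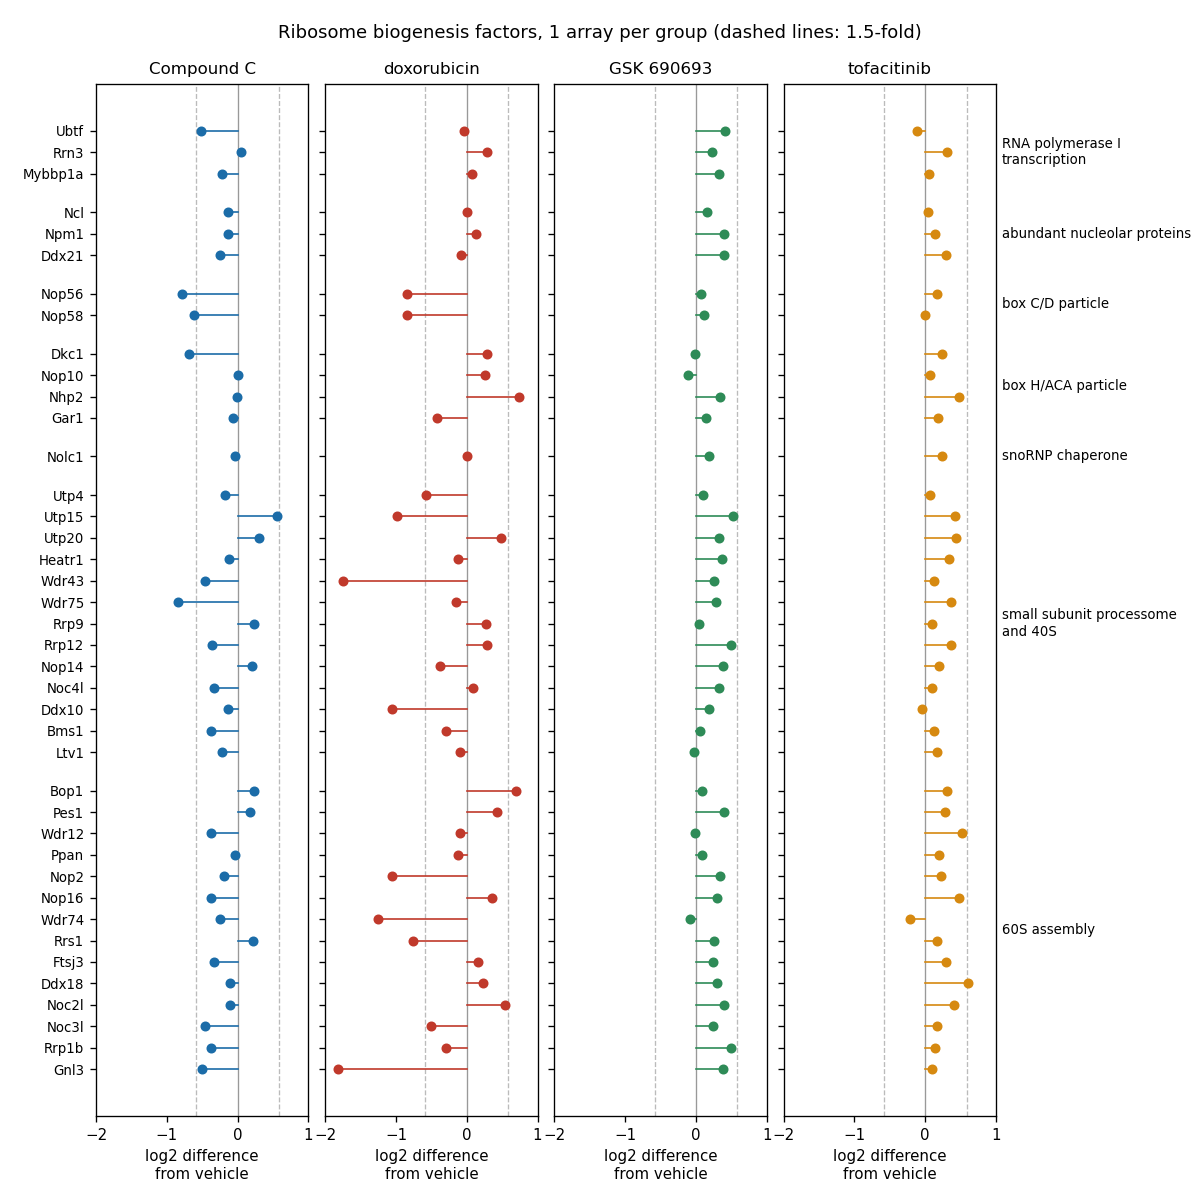
Log2 difference from vehicle of the 40 members (rows, grouped by role) for each compound (panels), with 1 array per group and no error. Points lie mostly left of 0 for Compound C, on both sides with long leftward excursions to −1.82 for doxorubicin, and mostly right of 0 but within 0.61 for GSK 690693 and tofacitinib.

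Doxorubicin gave the widest spread from vehicle among the members, as it did over all tested genes. A total of 9 members were at least 1.5-fold lower than with vehicle and 2 were at least 1.5-fold higher, that is 22.5% and 5.0%, beside 14.2% and 11.5% of the tested genes. At 2-fold the counts were 5 lower and 0 higher, beside 6.45% and 1.33% of the tested genes. By any amount, 22 members lay below vehicle and 17 above, beside 45.1% and 54.0% of the tested genes. The median difference was −0.08 for the members and 0.05 for the tested genes, and the members not counted above lay within 1.5-fold of vehicle. The standard deviation of the members' differences was 0.62 with doxorubicin, 0.30 with Compound C, 0.17 with GSK 690693 and 0.18 with tofacitinib. Over the tested genes it was 0.58, 0.46, 0.31 and 0.29 for the same compounds in that order, so the members lay near it with doxorubicin and below it with the others. Among the leukocyte markers, Cd68, also a lysosome gene, read 7.63 with doxorubicin, against 6.56 with vehicle. Csf1r read 5.27 against 4.93, Itgam 4.42 against 4.22 and Cd3e 5.06 against 5.02. Ptprc and Adgre1 stayed at or below 3.86 on all 5 arrays. Of the 10 fibroblast markers, 7 read above vehicle with doxorubicin and 3 below. The part of these markers in the members' differences was not tested.

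Gnl3, which encodes the nucleolar GTPase nucleostemin needed for 60S assembly, was the lowest member. Its log2 signal was 7.67 with doxorubicin, against 9.49 with vehicle, a 3.53-fold lower reading (log2 −1.82). It read 8.99 with Compound C, 9.87 with GSK 690693 and 9.58 with tofacitinib, so the doxorubicin array stood alone below the others. A total of 134 of the 12317 tested genes, Gnl3 included, had a difference as low or lower. Wdr43, a subunit of the early-binding UtpA complex of the small subunit processome, read 8.34 with doxorubicin, against 10.09 with vehicle, which is 3.36-fold lower (log2 −1.75). Its other readings were 9.63 with Compound C, 10.34 with GSK 690693 and 10.21 with tofacitinib.

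Wdr74, a nucleolar partner of the ATPase NVL in 60S assembly, read 8.69 with doxorubicin, against 9.94 with vehicle (log2 −1.25). The remaining compound arrays gave 9.69, 9.85 and 9.73 for Compound C, GSK 690693 and tofacitinib, all close to vehicle. Nop2, a methyltransferase of the large ribosomal RNA, read 8.92 with doxorubicin, against 9.98 with vehicle (log2 −1.06). Ddx10, a helicase of early 40S assembly, read 7.42 with doxorubicin, against 8.48 with vehicle (log2 −1.06). Both genes lay within 0.34 of vehicle on the Compound C, GSK 690693 and tofacitinib arrays. These 3 genes, with Gnl3 and Wdr43, are the 5 members past 2-fold.

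Utp15, another UtpA subunit, missed 2-fold. It read 7.23 with doxorubicin, against 8.21 with vehicle (log2 −0.98). With Compound C (8.77), GSK 690693 (8.74) and tofacitinib (8.63) it read above vehicle, so against the median of the other 4 arrays its difference with doxorubicin was −1.46. Rrs1, which brings the 5S particle into the 60S precursor, read 6.44 with doxorubicin, against 7.20 with vehicle (log2 −0.76), and its other probe set differed by −0.66. Nop56 and Nop58, the paired scaffold proteins of the box C/D snoRNP, both differed by −0.84 with doxorubicin. Utp4 at −0.58 and Noc3l at −0.51 lay just short of the 1.5-fold mark. On the higher side the 60S factor gene Noc2l, at 0.54, also lay just short. It passed the mark, at 0.60, with each array centred on its median.

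**Figure D2:**
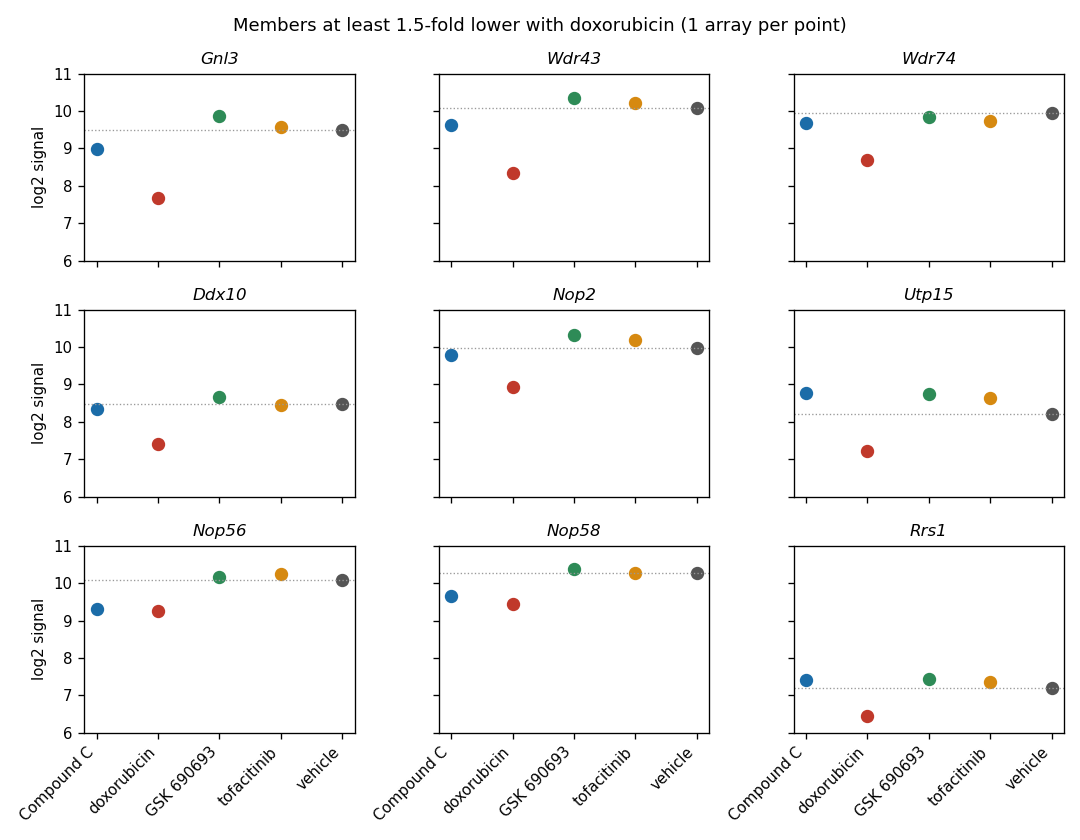
Log2 signal (vertical axis) on each of the 5 arrays (horizontal axis) for the 9 members at least 1.5-fold lower with doxorubicin; the dotted line marks vehicle. The doxorubicin point is the lowest of the 5 in each panel, and for Nop56 and Nop58 the Compound C point lies close to it.

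Members of 1 complex did not all read alike with doxorubicin. Among the UtpA proteins, Wdr43, Utp15 and Utp4 read lower as given above, whereas Heatr1 (−0.12) and Wdr75 (−0.15) stayed near vehicle. In the PeBoW complex, which processes the 60S precursor RNA, Bop1 read 8.97 with doxorubicin, against 8.27 with vehicle, a difference of 0.70. Its partners Pes1 and Wdr12 differed by 0.43 and −0.10. In the box H/ACA snoRNP, which makes pseudouridine, the core protein gene Nhp2 read 8.53 with doxorubicin, against 7.79 with vehicle (0.74), while Gar1 differed by −0.42. Nhp2 and Bop1 are the 2 members counted as higher, and they lost that call when the median of the other 4 arrays replaced vehicle. The catalytic subunit Dkc1 differed by 0.28 and Nop10 by 0.26.

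The 3 RNA polymerase I factors and the 3 abundant nucleolar proteins among the members read close to vehicle with doxorubicin. Rrn3, which couples the polymerase to the promoter, read 9.70 with doxorubicin, against 9.41 with vehicle. Ubtf, the upstream binding factor of the ribosomal DNA, read 8.83 with doxorubicin, against 8.87 with vehicle. The nucleolar protein gene Mybbp1a differed by 0.08, Ncl (nucleolin) by 0.01, Npm1 (nucleophosmin) by 0.13 and the helicase gene Ddx21 by −0.08. The snoRNP chaperone gene Nolc1 read 8.94 on both arrays. Outside the members, 23 genes of RNA polymerase I and III subunits and the factor SL1 were tested. With doxorubicin 8 of the 23 (34.8%) were at least 1.5-fold lower and 1 (4.35%) higher, beside 14.2% and 11.5% of the tested genes. Their median was −0.27, and the largest differences were those of Twistnb (−1.13), Znrd1 (−1.01) and Bdp1 (−0.90).

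Some members of the lower group also span small nucleolar RNA (snoRNA) genes, which in mammals are mostly cut from introns. By the RefSeq gene spans of assembly GRCm38.p6, 7 of the 40 members hold at least 1 annotated snoRNA gene, and this grouping was made after the values were seen. They are Nop56 with 5, Nop58 with 4, Gnl3 and Wdr43 with 3 each, Ncl and Ppan with 2 each and Dkc1 with 1. With doxorubicin 4 of these 7 were at least 1.5-fold lower, and 5 of the 33 other members were. The medians were −0.84 and −0.04. Outside the members, 16.3% of 245 tested genes with a snoRNA gene in their span were lower, close to the 14.4% of 11325 without. Among the 7, Nop56 and Ppan depended on the probe set. With the mean of its 3 probe sets, Nop56 differed by −0.03 with doxorubicin and lost its call. For Ppan, a 60S assembly factor, the probe set used differed by −0.13 with doxorubicin. The other read 5.42 with doxorubicin, against 7.21 with vehicle, a difference of −1.79.

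Because MYC binds the E-box letters CACGTG, and Myc itself read 6.68 with doxorubicin, against 9.77 with vehicle, the promoters of the members were searched for that motif. RefSeq promoter windows of 300 bases, from 250 before to 50 after a start site, were found for 36 of the 40 members, and 8 of these genes (22.2%) held CACGTG, which reads the same on both strands. Of the tested genes with a window, 11.7% held it, and of all genes with a window 8.09%. The ETS-type letters CCGGAAG or their complement CTTCCGG stood in 14 of the 36 (38.9%), beside 19.0% of tested genes. With doxorubicin the 8 members with CACGTG had a median difference of −0.01 and a range from −1.75 (Wdr43) to 0.48 (Utp20), and the 28 without had a median of −0.11 and a range from −1.82 (Gnl3) to 0.74 (Nhp2). The 2 ranges overlapped, and the part of the motif or of MYC in these differences was not tested. The motif lay only after the start site in 6 members and before it in 2, Nop2 and Rrn3, which stood at −1.06 and 0.29.

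The 120 bases before the start site are shown for these 2 promoters and for those of the lowest and the highest member with doxorubicin, Gnl3 and Nhp2, to set them side by side (RefSeq, GRCm38.p6, 5′ to 3′ on the gene's strand). Capitals mark CACGTG and CCGGAAG. The stretches are chr14:31019132-31019251 on the minus strand for Gnl3, chr6:125131763-125131882 on the plus strand for Nop2, chr16:13780579-13780698 on the plus strand for Rrn3 and chr11:51619653-51619772 on the plus strand for Nhp2.
Gnl3: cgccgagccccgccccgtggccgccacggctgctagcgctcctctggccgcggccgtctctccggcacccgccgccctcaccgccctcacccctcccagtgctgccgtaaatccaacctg
Nop2: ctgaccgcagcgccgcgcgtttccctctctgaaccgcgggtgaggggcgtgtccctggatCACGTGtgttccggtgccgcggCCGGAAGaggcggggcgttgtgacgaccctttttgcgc
Rrn3: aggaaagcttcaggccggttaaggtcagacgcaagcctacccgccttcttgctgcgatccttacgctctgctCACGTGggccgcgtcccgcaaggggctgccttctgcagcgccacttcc
Nhp2: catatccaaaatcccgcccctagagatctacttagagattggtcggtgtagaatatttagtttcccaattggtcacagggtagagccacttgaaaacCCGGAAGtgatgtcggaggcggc
The E-box begins 60 bases before the start site of Nop2 and 48 bases before that of Rrn3. The ETS-type letters begin 38 bases before the start site in Nop2 and 23 in Nhp2. The Rrn3 stretch holds no ETS-type letters, but its window of 300 bases does. The Gnl3 stretch holds neither motif.

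With Compound C the members read lower by small amounts and in greater number. Of the 40 members, 31 lay below vehicle by any amount and 8 above it, beside 52.2% and 46.6% of the tested genes. The median difference was −0.18, against −0.02 for the tested genes. At 1.5-fold, 4 members were lower and 0 higher, which is 10.0% beside 9.99% of the tested genes and 0.0% beside 6.06%, so the count of lower members was at the background. With each array centred on its median, the counts were 3 lower and 1 higher, or 7.5% and 2.5% beside 8.33% and 7.67% of the tested genes. Of the 10 fibroblast markers, 4 read above vehicle with Compound C (Col3a1, Thy1, Dcn and Postn), 4 below (Col1a1, Col1a2, Pdgfra and Pdgfrb) and 2 the same (Fn1 and Vim). The widest gap was that of Pdgfrb, at 8.66 with Compound C against 9.87 with vehicle, and the part of these markers in the members' differences was not tested.

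The 4 lower members were Wdr75, Nop56, Dkc1 and Nop58. Wdr75, a UtpA subunit, read 8.52 with Compound C, against 9.36 with vehicle (log2 −0.84, 1.79-fold), and between 9.21 and 9.72 on the doxorubicin, GSK 690693 and tofacitinib arrays. Dkc1, the pseudouridine synthase of the box H/ACA particle, read 7.30 with Compound C, against 7.99 with vehicle (−0.69), and at least 7.97 on the remaining arrays. Both genes were thus low on the Compound C array alone. Nop56 read 9.31 with Compound C, 9.25 with doxorubicin, 10.25 with tofacitinib and 10.16 with GSK 690693, against 10.09 with vehicle. Nop58 read 9.66 with Compound C, 9.43 with doxorubicin, 10.26 with tofacitinib and 10.39 with GSK 690693, against 10.27 with vehicle. The pair of box C/D scaffold genes was low with both compounds, whose differences share the vehicle array, but neither gene kept its 1.5-fold call with Compound C under every alternative. Nop58 stood at −0.55 after centring, and Nop56 depended on the probe set.

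Nop56 rests on 1 of its 3 probe sets. The others were dim, between 5.20 and 6.10 on the 5 arrays, and differed from vehicle by 0.51 and −0.55 with Compound C and by 0.57 and 0.19 with doxorubicin. With the mean of the 3, Nop56 differed by −0.27 with Compound C and by −0.03 with doxorubicin, and lost both calls.

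Among the polymerase I factors, Ubtf read 8.35 with Compound C, against 8.87 with vehicle (−0.52), and Rrn3 stayed within 0.05. Ubtf was lowest on the Compound C array and highest with GSK 690693, at 9.28. Gnl3 (−0.50), Wdr43 (−0.46) and Noc3l (−0.46), a factor of early 60S precursors, came next among the lower members. On the other side were Utp15 (0.56), the large processome scaffold Utp20 (0.31), the U3 snoRNP protein gene Rrp9 (0.24), Bop1 (0.23) and Rrs1 (0.22). Of these, Utp20, Rrp9 and Bop1 read lower with vehicle than on any compound array.

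With GSK 690693 most members read slightly above vehicle. The count was 35 of 40 above and 5 below, beside 55.2% and 43.6% of the tested genes, and the median difference was 0.25, against 0.04. No member reached 1.5-fold in either direction, 0.0% beside 2.4% higher and 3.21% lower of the tested genes. The highest were Utp15 (0.53), the 60S factor Rrp1b (0.50), the 40S export factor Rrp12 (0.49), Ubtf (0.41), Ddx21 (0.40) and Pes1 (0.40). Npm1 read 11.07 with GSK 690693, against 10.68 with vehicle. The 5 below vehicle were Nop10, Wdr74, Ltv1, Dkc1 and Wdr12, none by more than 0.11. After centring each array on its median, 32 members lay above vehicle and 7 below.

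Tofacitinib gave a similar picture on the deposited scale. There were 36 members above vehicle and 4 below, beside 62.7% and 35.8% of the tested genes, with a median of 0.18 against 0.09. After centring, the tested genes had a median of −0.08, the members one of 0.015, and 21 members lay above vehicle and 18 below. Only Ddx18, a helicase of 60S assembly, passed 1.5-fold, at 9.43 with tofacitinib against 8.82 with vehicle (0.61), or 2.50% of the members beside 2.66% of tested genes, and 0 members were lower beside 2.0%. That call was lost after centring, and the other, dim probe set of Ddx18 differed by −0.24. Wdr12 (0.52), Nhp2 (0.48) and the 60S factor Nop16 (0.47) followed. Wdr74 was lowest at −0.21.

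The contrast between the 2 compounds that inhibit AMPK does not use the vehicle array. GSK 690693 read above Compound C in 36 of 40 members and below it in 4, beside 53.6% and 45.2% of the tested genes. The median difference, GSK 690693 minus Compound C, was 0.41, against 0.03. At 1.5-fold, 13 members were higher with GSK 690693 and 0 lower, which is 32.5% beside 11.2% of the tested genes and 0.0% beside 5.18%. After centring, 7 members were higher and 0 lower, or 17.5% and 0.0% beside 7.38% and 8.73% of the tested genes, and the median was 0.28, with −0.10 for the tested genes.

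The members with the widest gap came from every role but the snoRNP chaperone. Wdr75 led, at 9.64 with GSK 690693 against 8.52 with Compound C, a difference of 1.12. Ubtf differed by 0.93, Gnl3 by 0.88, Rrp1b by 0.87, Rrp12 and Nop56 by 0.85 each, Nop58 by 0.73 and Wdr43 by 0.71. Noc3l (0.70), Nop16 (0.68), Dkc1 (0.67), the processome factor Noc4l (0.66) and Ddx21 (0.65) completed the 13. Wdr43, Noc3l, Nop16, Dkc1, Noc4l and Ddx21 are the 6 that fell short of 1.5-fold after centring, at 0.52 to 0.58. The 4 members lower with GSK 690693 were Utp15, Nop10, Bop1 and Rrp9, by at most 0.20. Tofacitinib minus GSK 690693 gave a median of −0.04, against 0.04 for the tested genes, and 0 members past 1.5-fold either way, beside 2.31% higher and 1.14% lower of the tested genes. Ubtf (−0.53) and Wdr12 (0.53) were its extremes. After centring, 30 members lay below 0, the median was −0.14 and 1 member, Ubtf (−0.63), was at least 1.5-fold lower, or 2.50% beside 1.83% of the tested genes.

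**Figure D3:**
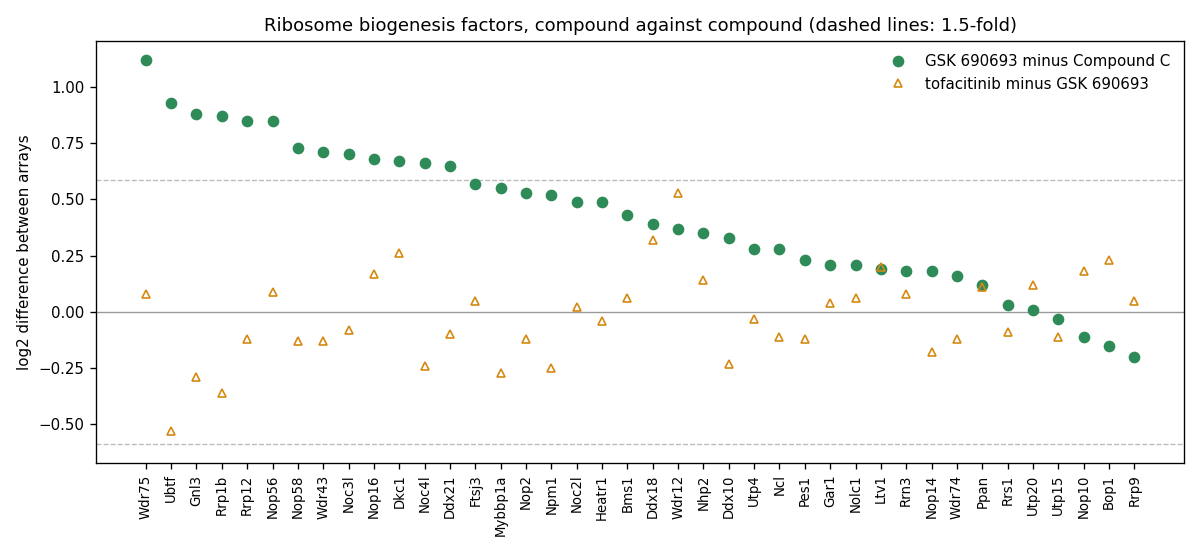
Log2 difference between compound arrays (vertical axis) for the 40 members (horizontal axis), with circles for GSK 690693 minus Compound C and triangles for tofacitinib minus GSK 690693. The circles run from 1.12 to −0.20 with 13 above the 1.5-fold line, and all triangles stay between −0.53 and 0.53.

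Doxorubicin and Compound C differed from each other in both directions. Doxorubicin minus Compound C had a median of 0.13 over the members and of 0.13 over the tested genes. At 1.5-fold, 6 members were higher with doxorubicin and 7 lower, or 15.0% and 17.5% beside 15.4% and 14.9% of the tested genes, which is near the background on both sides. Utp15 had the largest gap, at 7.23 with doxorubicin against 8.77 with Compound C (−1.54), followed by Gnl3 (−1.32) and Wdr43 (−1.29). Dkc1 was the highest, at 8.27 with doxorubicin against 7.30 with Compound C (0.97), followed by Nhp2 (0.75) and Nop16 (0.73). Nop56 (−0.06) and Nop58 (−0.23) hardly separated the 2 arrays.

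Other genes of the pathway, 131 tested in 4 lists, were read alongside the members. With doxorubicin 35 of the 131 (26.7%) were at least 1.5-fold lower and 2 (1.53%) higher, beside 14.2% and 11.5% of the tested genes, with a median of −0.17. The lowest were Mphosph6, an exosome cofactor in ribosomal RNA maturation (−2.68), the RNase P subunit gene Rpp38 (−2.33) and the 60S export adaptor Nmd3 (−1.61). With Compound C the median was −0.09, and 21 (16.0%) were lower and 4 (3.05%) higher, beside 9.99% and 6.06% of the tested genes. Here Exosc1, an exosome subunit, read 8.13 with Compound C, against 9.87 with vehicle (−1.74), the RNA polymerase III subunit gene Polr3e differed by −1.39 and the RNA polymerase I subunit gene Polr1b by −1.09. With GSK 690693 6 (4.58%) were higher and 0 lower, beside 2.4% and 3.21% of the tested genes, and the median was 0.19. With tofacitinib 7 (5.34%) were higher and 0 lower, beside 2.66% and 2.0%, and the median was 0.20. In GSK 690693 minus Compound C, 40 of the 131 (30.5%) were at least 1.5-fold higher and 0 lower, beside 11.2% and 5.18% of the tested genes.

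The cytosolic ribosomal protein genes, whose products the members assemble, mostly read above vehicle with all 4 compounds. Their medians were highest with Compound C and doxorubicin. Of 56 tested, 55 (98.2%) lay above vehicle with Compound C and 53 (94.6%) with doxorubicin, beside 46.6% and 54.0% of the tested genes. Their medians were 0.31 and 0.42, beside −0.18 and −0.08 for the members and −0.02 and 0.05 for the tested genes. Rpl30 had the largest difference from vehicle, at 6.59 with doxorubicin against 5.38 with vehicle. Its probe set was dim, as the array medians that set the filter were 5.37 to 5.44. With GSK 690693 and tofacitinib the medians were 0.14 and 0.14. In GSK 690693 minus Compound C the ribosomal proteins had a median of −0.17 and the members one of 0.41. With doxorubicin the members themselves lay on both sides of vehicle, 22 below and 17 above, or 21 and 19 after centring. Ribosomal protein genes have near-identical processed copies, and whether their probes also read those was not tested.

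**Figure D4:**
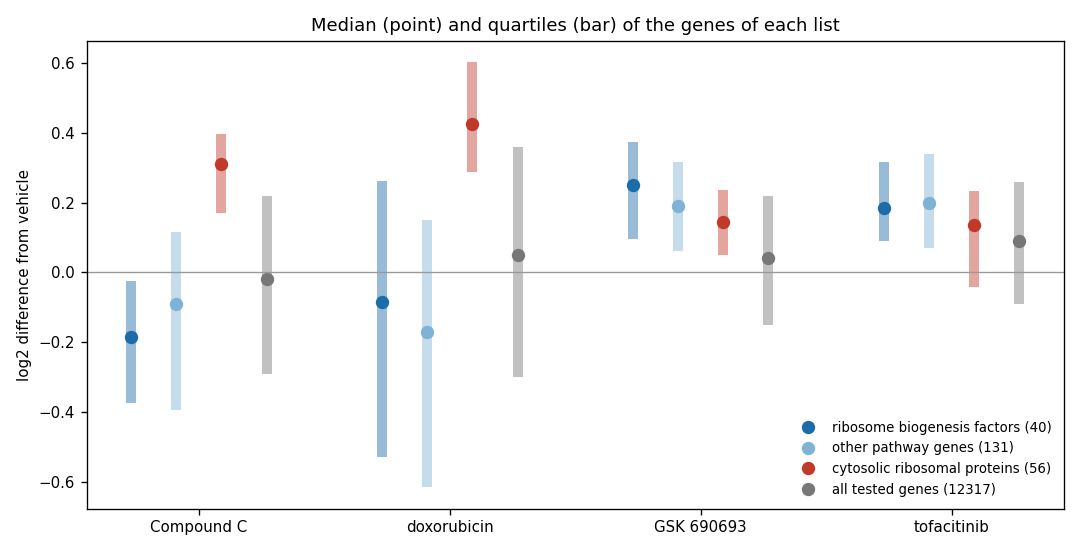
Median (points) and quartiles (bars) of the log2 difference from vehicle for each compound over the 40 members, 131 other pathway genes, 56 cytosolic ribosomal protein genes and 12317 tested genes. With Compound C and doxorubicin the members and the other pathway genes have medians below 0. The ribosomal proteins have medians of 0.31 and 0.42 there. With GSK 690693 and tofacitinib all medians are above 0.

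Myc, which encodes the transcription factor that drives many of these genes, read 8.72 with Compound C, 6.68 with doxorubicin, 9.41 with tofacitinib and 9.58 with GSK 690693, against 9.77 with vehicle. Its signal was lowest with doxorubicin, as was that of 14 members (35.0%, tested genes 25.3%). It lay below vehicle by 0.19 with GSK 690693 and by 0.36 with tofacitinib. On these arrays 35 and 36 members lay above vehicle, beside 55.2% and 62.7% of the tested genes. After centring, 32 and 21 members lay above. The part of Myc in these differences was not tested.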

How the data were processed

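Total RNA (300 ng a sample, per the labels) was hybridised to 1 Affymetrix whole-transcript array per group. The authors deposited 1 log2 value per probe set and array, made with Affymetrix Expression Console 1.3.1.187 per the submitters' processing notes. Summarisation, background correction and normalization were not stated, and the log base was inferred from the range of 1.05 to 13.18. Of 41345 probe sets, 23521 had 1 symbol. A gene was tested if 1 of its values reached its array median over these probe sets (5.37 to 5.44).

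Differences of log2 values were counted at 1.5-fold and 2-fold with Python 3.11.15 and pandas 2.3.3. The counting was tested on simulated data at 2-fold and on the higher side only, so the counts at 1.5-fold and the lower counts were not tested. No test was possible with 1 array per group, and the number of arrays limits the precision. All members could be named, and from each other list the 3 largest differences in a comparison, with Myc. Members and lists were chosen with earlier results of these data known. The snoRNA grouping and the motifs were chosen after the values were seen. The alternatives were array centring, quantile normalization, the other 4 arrays' median as reference, 2 other filters and the mean of a gene's probe sets.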

Additional observations from a re-analysis of the deposited data

How the results depend on the processing

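Medians were compared at a tolerance of 0.1 on the log2 scale and counts at 1.5 times. Of 117 alternative values of the members' medians and counts over the 7 comparisons, 105 stayed within these limits. The 117 include values that could not move, as given below. Against the other 4 arrays' median, the median with Compound C was −0.30 (−0.18 against vehicle), and the members at least 1.5-fold higher numbered 0 with doxorubicin (2), 2 with GSK 690693 (0) and 0 with tofacitinib (1). Centring gave 1 member higher with Compound C (0), a median of 0.28 (0.41) and 7 higher members (13) for GSK 690693 minus Compound C, 1 lower member for tofacitinib minus GSK 690693 (0), and a median of 0.015 and 0 higher members with tofacitinib. Quantile normalization and the mean of all probe sets also left 0 higher members with tofacitinib. Of 226 alternative values of single members past 1.5-fold, 0 changed sign and 5 moved by more than 0.26, the standard deviation between the GSK 690693 and tofacitinib arrays. The 226 also include values that could not move. The mean of a gene's probe sets, for example, could change only the 7 members with more than 1 probe set. The alternatives for counts between compounds were added after seeing the data. Both other filters kept all 40 members, so they could not move any of these medians, counts or single values. Centring could not change doxorubicin minus Compound C, because both arrays had a median of 7.16. No paired analysis was possible because each group has 1 array, and no replicate could be left out. A normalization that equalised the arrays would have hidden any shift of most genes in one direction. Dim probe sets, for which detection is unknown, may understate differences.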
